A study of Mus musculus with 16 samples.

Results

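The genes described here are 42 genes of the skeletal muscle sarcomere, its calcium cycle and its energy supply, measured in whole mouse skin. They were chosen by gene symbol, and each was read from the probe set that bears its symbol alone and is brightest on average. Of the 42 genes, 39 have such a probe set, among 12393 genes on the array that do. After a filter on dim signals 36 of them were among 9058 genes tested. Mybpc2, Mybpc1 and Neb have no probe set with that single symbol and are not analysed here, and the slow-fibre troponin genes Tnnc1, Tnni1 and Tnnt1 lay below the filter. The genes fall into 12 fast-fibre contractile, 4 slow-fibre contractile, 6 calcium-handling, 15 shared sarcomere and 5 energy genes.

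Skeletal muscle contracts when myosin heavy chains pull on actin filaments inside the sarcomere, and calcium released from internal stores frees actin through the troponin complex. Fast and slow fibres use different genes for myosin, troponin and the calcium pump, so transcripts of these genes tell fibre types apart. Mouse skin rests on a thin sheet of striated muscle, the panniculus carnosus, and dissected skin carries part of it along.

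The skin came from K14ΔNβ-cateninER transgenic mice of line D2, and the controls were wild-type C57BL/6 animals. Both genotypes received 4-hydroxytamoxifen (4OHT) for 0, 1 or 7 days. The transgene uses the keratin 14 promoter to make β-catenin that lacks its N-terminus and is joined to an oestrogen receptor ligand-binding domain. That promoter is active in basal keratinocytes and not in muscle fibres, and 4OHT switches the fusion protein on. There were 16 arrays: 2 transgenic at day 0 and 3 each at days 1 and 7, against 3 wild-type each at days 0 and 1 and 2 at day 7. No group received vehicle alone, so drug, handling and time cannot be told apart within a genotype. Day 0 stands for no days of the drug, and the ages of the animals are not given in the sources used here. The labels speak of mice in the plural for most samples and of a single mouse for wild-type day 1 replicate 3 and both wild-type day 7 samples, so pooling of animals is not settled. P-values therefore measure the spread between these samples, which may be technical. Signals are scaled intensities without a unit, which cannot be compared between genes, and changes are on the log2(intensity + 32) scale with the standard error (SE) of a limma fit over all 16 arrays. A gene was called at a Benjamini-Hochberg adjusted p under 0.05 over all 9058 genes. In whole skin, fewer muscle fibres and less of a transcript per fibre cannot be told apart.

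Defining genes of skeletal muscle were read in all 6 groups. Acta1 (skeletal α-actin) lay between 10078 and 15779 and Ckm (muscle creatine kinase) between 5211 and 12934 over the 16 arrays. Genes that define heart muscle were near the lower end of the scale, with Myh6, Nppa, Myl7, Tnni3 and Ryr2 below the filter. The other heart genes on the list, Nppb and Mybpc3, summed to 331 to 389 on transgenic day 7 arrays and 188 to 358 on the others, and Nppb rose there by 0.57 ± 0.17 from day 0 (adjusted p = 0.0158); the part of this in other values was not tested. Of the genes of slow fibres outside the set, Myh7, the slow myosin heavy chain, lay between 9.52 and 46.6, Myl2 between 19.2 and 83.5 and Myl3 between 14.8 and 77.3, all below the filter. The trimmed mean of the arrays ranged from 359 to 548 before scaling, and Gapdh probes at the 3' end over those at the 5' end gave 0.884 to 1.26. No pair of arrays held identical values.

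In transgenic skin after 7 days of 4OHT, 34 of the 36 muscle genes tested were lower than at day 0 and 0 were higher, where 20.1% of all genes tested were called lower and 18.6% higher. The median change of the 36 was -1.34, against 0.01 over all 9058 genes, and single changes ran from -2.78 (Carns1) to -0.17 (Acta1). At least a 2-fold fall past the threshold was found for 24 of the 36, against 4.4% of all genes. The day 7 and day 0 arrays did not overlap for 33 of the 36, against 59.7% of all genes. Against day 1 of the same genotype the count was again 34 lower of 36 (22.7% of all genes), with a median of -1.05. The genes not called in either comparison were Acta1 and Myh1, the fast IIx myosin heavy chain.

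In wild-type skin at day 7, 3 of 36 genes were lower and 0 higher than at day 0 (5.96% of all genes were called lower), with a median of -0.05. The difference between the genotypes in the day 7 change was itself called for 29 of the 36 genes, all 29 towards a lower value in transgenic skin, where 11.7% of all genes were called in that direction. Set directly against wild-type skin at day 7, transgenic skin was lower for 36 of 36 genes tested (21% of all genes), with a median of -1.29, 28 of them by at least 2-fold (4.61% of all genes), and with no overlap between the groups for 35 of them (63% of all genes). These comparisons share the transgenic day 7 arrays and are not independent of one another. Summed over the 36 genes, intensity was 95656 to 109413 on the 3 transgenic day 7 arrays and 148643 to 214700 on the other 13.

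**Figure D1:**
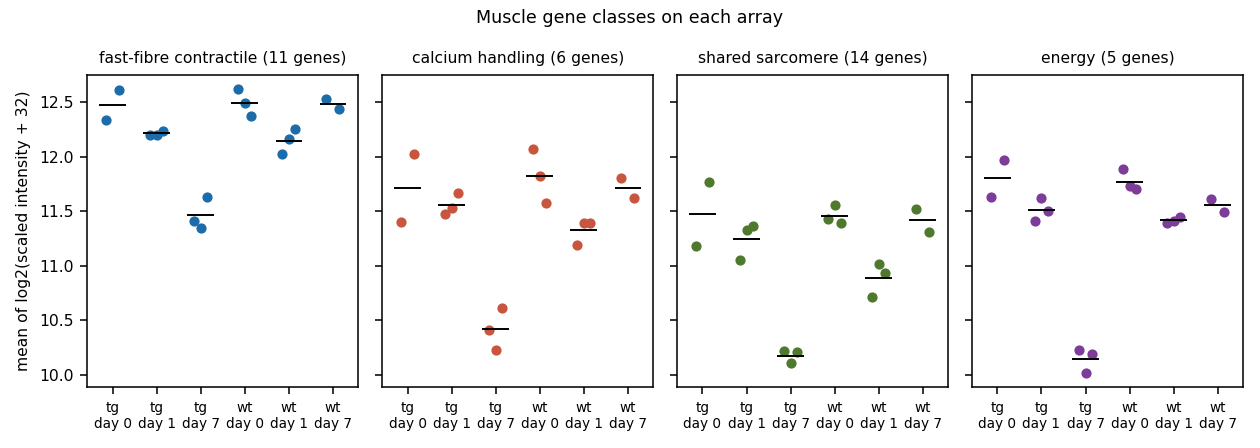
Mean of log2(scaled intensity + 32) over the genes of each class on each of the 16 arrays, by genotype (tg, transgenic; wt, wild-type) and day; points are arrays and lines are group means. In all 4 classes the 3 transgenic day 7 arrays lie below the other 13.

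The 3 fast myosin heavy chain genes lie next to each other on chromosome 11 in the order Myh2, Myh1 and Myh4. They encode the motor proteins of IIa, IIx and IIb fibres. They are shown with the 250 bases before their annotated starts, because Myh4 and Myh2 were called lower at day 7 and their neighbour Myh1 was not, together with Tnni1, the slow troponin I gene described further on. Sequences are from RefSeq on GRCm38.p6, 5′ to 3′, and 30 of the 42 genes had an entry. Capitals mark 3 motifs searched on both strands: the E-box CAGCTG that myogenic factors can bind, the CArG box of serum response factor, and TATAAA. No match overlapped another.
Myh2, chr11:67170777-67171026, plus strand: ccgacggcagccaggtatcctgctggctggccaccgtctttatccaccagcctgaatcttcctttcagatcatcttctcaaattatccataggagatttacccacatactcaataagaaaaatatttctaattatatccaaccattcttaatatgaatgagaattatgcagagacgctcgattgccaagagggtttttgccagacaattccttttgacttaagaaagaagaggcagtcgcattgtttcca
Myh1, chr11:67199852-67200101, plus strand: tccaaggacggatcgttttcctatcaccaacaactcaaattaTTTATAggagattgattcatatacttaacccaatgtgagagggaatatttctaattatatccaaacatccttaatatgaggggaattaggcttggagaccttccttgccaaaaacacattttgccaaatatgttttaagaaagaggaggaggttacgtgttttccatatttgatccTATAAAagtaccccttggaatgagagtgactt
Myh4, chr11:67237562-67237811, plus strand: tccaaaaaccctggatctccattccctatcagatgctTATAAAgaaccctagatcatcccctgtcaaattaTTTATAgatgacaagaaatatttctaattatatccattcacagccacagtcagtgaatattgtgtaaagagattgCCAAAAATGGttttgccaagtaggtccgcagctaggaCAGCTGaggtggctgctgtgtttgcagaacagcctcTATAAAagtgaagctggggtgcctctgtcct
Tnni1, chr1:135799171-135799420, plus strand: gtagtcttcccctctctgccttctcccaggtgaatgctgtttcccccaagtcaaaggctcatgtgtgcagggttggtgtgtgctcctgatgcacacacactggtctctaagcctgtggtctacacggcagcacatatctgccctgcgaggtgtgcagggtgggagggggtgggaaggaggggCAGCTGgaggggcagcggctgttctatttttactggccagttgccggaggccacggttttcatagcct

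The Myh4 window holds the E-box 67 bases and a CArG box 104 bases before the start, with TATAAA at 31 and 213 bases and its reverse complement at 179. The Myh1 window holds TATAAA at 32 bases and its reverse complement at 208, and no E-box or CArG box. In the Myh2 window none of the 3 motifs was found. The Tnni1 window holds the E-box at 68 bases. Among all 32851 promoter windows of this length, 13% hold CAGCTG, 1.47% a CArG box and 12.37% TATAAA, and among the 30 muscle genes with an entry the counts are 14, 4 and 5. A match describes letters only.

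Myh4, the IIb heavy chain of the fastest fibres, read 9371 and 5678 at day 0 in transgenic skin, 8174, 6288 and 6419 at day 1, and 1716, 1125 and 5974 at day 7. In wild-type skin it read 10757, 8227 and 9192 at day 0, 7626, 7224 and 9050 at day 1, and 4139 and 8150.5 at day 7. At transgenic day 7 replicates 1 and 2 were the lowest of all arrays and replicate 3 lay within the range of day 0. The change from day 0 was -1.67 ± 0.47 (adjusted p = 0.00999), a large fall with a wide error. It was -1.31 (adjusted p = 0.116) without transgenic day 0 replicate 1, and the difference between genotypes in this change was -0.99 ± 0.66 and was not called (adjusted p = 0.3).

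Myh1 (IIx) was not called against day 0. It read 7712 and 10341 at transgenic day 0 and 8036, 8529 and 5972 at day 7, so the groups overlapped, with a change of -0.27 ± 0.17 (adjusted p = 0.228; 95% interval -0.63 to 0.10). Wild-type skin read 7323, 9581 and 8860.4 at day 0 and 11020 and 9896 at day 7, and the genotypes differed at day 7 by -0.49 ± 0.17 (adjusted p = 0.0271), a call lost without transgenic day 7 replicate 3 at -0.33 (adjusted p = 0.107). It was also lost without wild-type day 7 replicate 1 at -0.41 (adjusted p = 0.169) and without replicate 2 at -0.57 (adjusted p = 0.0598). The probe set read for Myh1 is of the kind the maker marks as possibly matching related transcripts. A second Myh1 probe set had means of 5546 at transgenic day 0 and 5815 at day 7, a log2 difference of 0.04. Signal from a neighbouring heavy chain in the first of these cannot be told apart from Myh1 itself.

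Myh2 (IIa) fell in transgenic skin, from 2258 and 2742 at day 0 to 1060.3, 1592 and 972 at day 7, with no overlap. The change was -1.06 ± 0.22 (adjusted p = 0.00152), and the genotypes differed in it by -1.39 ± 0.32 (adjusted p = 0.00543). Wild-type skin stood at 3498, 2351 and 2789.5 at day 0, 1354, 1734 and 2098 at day 1 and 4012 and 3213 at day 7, low at day 1 and high at day 7. Within single arrays the log2 ratio of Myh4 to Myh1 averaged -0.29 at transgenic days 0 and 1 and -1.70 at day 7, where the 3 arrays gave -2.21, -2.89 and 0.00. In wild-type skin the 3 arrays at day 0 gave 0.55, -0.22 and 0.05 and the 2 at day 7 gave -1.41 and -0.28. In each genotype 1 day 7 array thus lay within or close to the range of day 0, and the ratio was not tested.

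**Figure D2:**
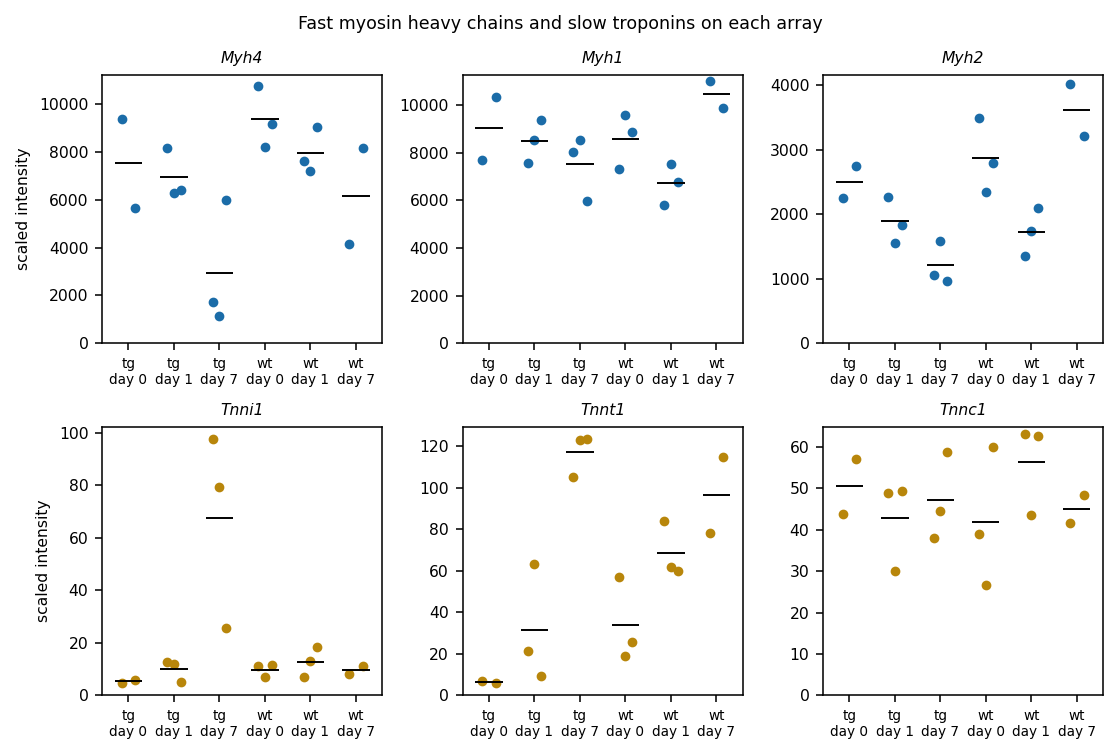
Scaled intensity (no unit) of the fast myosin heavy chains Myh4, Myh1 and Myh2 and the slow troponins Tnni1, Tnnt1 and Tnnc1 on each array (tg, transgenic; wt, wild-type); points are arrays, lines are group means, and the axes differ between panels. Myh4 is low on 2 of 3 transgenic day 7 arrays, Myh1 overlaps between days, and Tnni1 is highest at transgenic day 7.

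The light chains, the thin-filament switch and the fast Z-disc genes fell by different amounts. Of the 11 fast-fibre genes tested, 10 were lower at transgenic day 7 than day 0 (20.1% of all genes), with a class median of -1.04. Mylk2, the skeletal myosin light chain kinase, fell furthest, from 619 and 1079 to 226, 217 and 244 (-1.71 ± 0.23, adjusted p = 3.32e-05). Actn3, the fast-fibre actinin of the Z-disc, went from 4576 and 5141 to 1476, 1205 and 2415 (-1.56 ± 0.23, adjusted p = 6.22e-05), against 4604 and 3918 in wild-type skin at day 7. Myoz1, a calcineurin-binding Z-disc protein of fast fibres, went from 3038 and 3756 to 1223, 926 and 1252 (-1.56 ± 0.13, adjusted p = 2.16e-07). On these 3 genes every transgenic day 7 array lay below every other array.

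On the probe sets read, the fast troponin subunits T, I and C fell by different amounts. Tnnt3, which ties troponin to tropomyosin, changed by -1.04 ± 0.13, from 6146 and 8833 to 3320.3, 3563 and 3850. Tnni2, the inhibitory subunit, changed by -0.82 ± 0.11, from 10401 and 13441 to 6811, 6441 and 6853. A second Tnni2 probe set, with a mean of 4061 at day 0 and 1602 at day 7, changed by -1.33. The order of the subunits thus depends on the probe set read. Tnnc2, the calcium-binding subunit, changed by -0.43 ± 0.10, from 9507 and 11534 to 7529, 7783 and 8015. All 3 falls were called (adjusted p = 1.97e-05, 3.28e-05 and 0.00411), and the differences between them were not tested. The myosin light chains Mylpf and Myl1 fell by 0.65 and 0.40 (adjusted p = 0.000411 and 0.0164). Without transgenic day 0 replicate 2 Mylpf was at -0.43 and stayed called. Myl1 read 7931, 7848 and 9147 at transgenic day 7 against 10054 and 11842 at day 0. For Tnnc2 the call was lost without transgenic day 0 replicate 2, at -0.29 (adjusted p = 0.0925). For Myl1 it was lost without that array, at -0.28 (adjusted p = 0.185), and without transgenic day 7 replicate 1 or 2, each at -0.36 (adjusted p = 0.0509 and 0.0557).

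All 6 calcium-handling genes were lower at transgenic day 7 than at day 0 (20.1% of all genes), with a median of -1.16. All 6 were also lower than in wild-type skin at day 7 (21% of all genes), with a median of -1.33. Ryr1, the channel that releases calcium from the sarcoplasmic reticulum, read 4070.2 and 4640 at transgenic day 0, 3130.2, 3289 and 3926 at day 1 and 882, 750.0 and 1327 at day 7. In wild-type skin it read 4809, 5007 and 4182, then 2289, 2818 and 2909, then 3308 and 2519.7. It was low on all 3 transgenic day 7 arrays and also fell in wild-type skin, by a smaller amount. The changes to day 7 were -2.14 ± 0.19 in transgenic (adjusted p = 4.53e-07) and -0.68 ± 0.19 in wild-type skin (adjusted p = 0.0295), and they differed by -1.46 ± 0.27 (adjusted p = 0.00128).

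Casq1, which stores calcium in the reticulum, went from 3462 and 4259 to 1517, 1215 and 1532 in transgenic skin (-1.42 ± 0.13, adjusted p = 7.34e-07) and read 3661 and 3755 in wild-type skin at day 7. Pvalb, the calcium buffer of fast fibres, went from 7546 and 8894 to 3151, 2598 and 4669 (-1.27 ± 0.19, adjusted p = 8.05e-05). Atp2a1, the fast-fibre pump that returns calcium to the reticulum, went from 11460 and 15635 to 6366, 6306 and 7627 (-0.99 ± 0.13, adjusted p = 2.22e-05). For all 3 the day 7 arrays stayed below those of the other 5 groups. Cacna1s, the voltage sensor that opens Ryr1, changed by -0.91 ± 0.22 (adjusted p = 0.00449) between groups that read 283 and 593 and 232, 193 and 189. Trdn, which anchors calsequestrin to the release channel, read 968 and 2969 at day 0 and 806, 772 and 856 at day 7 (-1.04 ± 0.39, adjusted p = 0.0435). Its call, on this probe set, was the least firm of the 34, lost in 14 of 26 alternative settings. Further Trdn probe sets that passed the filter changed by -1.54, -1.05 and -0.55, the last on a dim signal. These were not tested singly. Without transgenic day 0 replicate 2, Trdn was at -0.25 (adjusted p = 0.674) and Cacna1s at -0.42 (adjusted p = 0.146). Each of the other 9 arrays whose removal ended the Trdn call left it at -1.01 to -1.08 (adjusted p = 0.0506 to 0.0924).

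**Figure D3:**
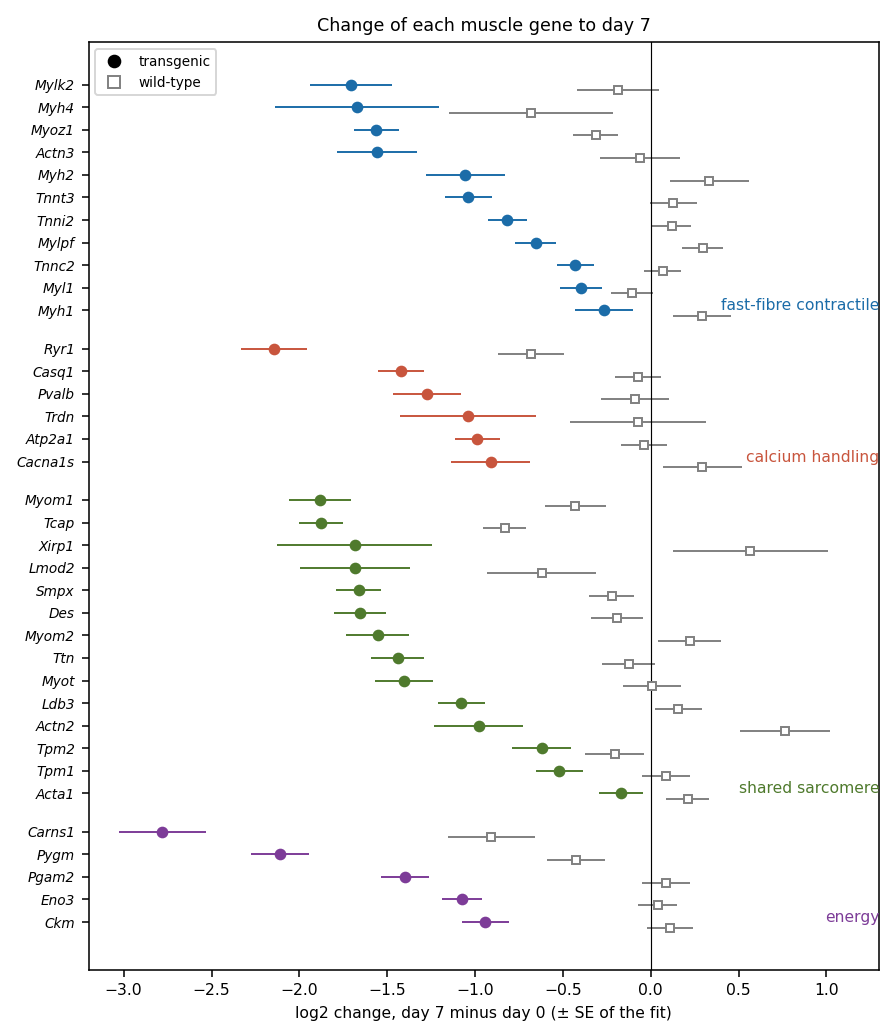
Log2 change from day 0 to day 7 of the 36 muscle genes tested (rows, by class), in transgenic skin (filled circles) and wild-type skin (open squares); bars are the SE of the limma fit. The transgenic changes run from -2.78 (Carns1) to -0.17 (Acta1), and in wild-type skin only Carns1, Tcap and Ryr1 passed the threshold.

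Of the genes grouped here as shared sarcomere genes, 13 of 14 tested were lower at transgenic day 7 than day 0 (20.1% of all genes). Their median was -1.50. Tcap, which caps titin at the Z-disc, had the smallest adjusted p of all 36 genes, with 5019.9 and 6345 at day 0 and 1590.5, 1578 and 1386 at day 7 (-1.88 ± 0.12, adjusted p = 2.91e-08). It was already lower at day 1 in both genotypes, at 3165, 3919 and 3334 in transgenic and 3341, 3890 and 3420.3 in wild-type skin, against 6143, 5898 and 5214 at wild-type day 0, and it stayed at 3486 and 2953 at wild-type day 7. Ttn, the giant spring protein of the sarcomere, went from 6576 and 9545 to 2887, 2729.6 and 3091 (-1.44 ± 0.15, adjusted p = 2.2e-06), and a second Ttn probe set changed by -1.12. Des, the intermediate filament that links myofibrils, went from 2525 and 3327 to 986, 724 and 1013 (-1.66 ± 0.15, adjusted p = 5.25e-07). A dim second Des probe set, with a mean of 130.0 at day 0 and 113 at day 7, changed by -0.17.

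The M-band genes Myom1 and Myom2 fell by 1.88 and 1.55 (adjusted p = 7.47e-07 and 7.11e-06). Of the Z-disc and costamere genes, Smpx fell by 1.66, Myot by 1.40 and Ldb3 by 1.08, with adjusted p-values of 1.15e-07, 8.4e-06 and 1.33e-05. Actn2, the actinin of all fibre types, read 1550.4 and 3376 at transgenic day 0 and 1171, 1455 and 879 at day 7 (-0.98 ± 0.26, adjusted p = 0.00655), while wild-type skin stood at 1837, 2312 and 2033 at day 0 and 4162 and 2964 at day 7. The change in Actn2 differed between genotypes by -1.75 ± 0.36 (adjusted p = 0.00287). Xirp1, an actin-binding protein of muscle attachment sites, differed most between genotypes, by -2.25 ± 0.62 (adjusted p = 0.0168), on dim signals of 93.1 and 444 and 38.9, 39.3 and 54.4 in transgenic and 136, 206 and 189.7 and 339 and 221 in wild-type skin at days 0 and 7. Transgenic day 0 replicate 2 was high for both genes, and without it the transgenic changes were -0.43 (adjusted p = 0.201) for Actn2 and -0.72 (adjusted p = 0.207) for Xirp1. The genotype difference for Xirp1 was then -1.29 (adjusted p = 0.1), and it was -1.97 (adjusted p = 0.078) without wild-type day 7 replicate 1.

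Genes of the thin filament ranged from the smallest change of the 36, in Acta1, to falls of over 2-fold. Over the 36 genes falls were smaller where the transgenic day 0 signal was brighter (Spearman's rho of signal and log2 change 0.57). Median changes were -0.74 for genes over 8000, -1.49 from 2000 to 8000 and -1.68 up to 2000. The part of signal level in the differences between genes was not tested. Acta1 read 11284 and 13351 at transgenic day 0 and 10078, 10955 and 11760 at day 7, a change of -0.17 ± 0.12 that was not called (adjusted p = 0.303; 95% interval -0.44 to 0.10). Tpm2, a tropomyosin that lies along actin, changed by -0.62 ± 0.17 (adjusted p = 0.00824), and was at -0.51 (adjusted p = 0.09) without transgenic day 0 replicate 2 and at -0.41, still called, without transgenic day 7 replicate 2. Its further probe sets fell by more in transgenic skin, with changes of -1.52, -0.95 and -1.11. In wild-type skin these changed by 0.02, -0.04 and 0.02 from day 0 to day 7. Lmod2, which starts actin filaments, fell from 679 and 926 to 216, 196 and 269 (-1.68 ± 0.31, adjusted p = 0.000504). For Tpm1 the probe sets disagreed in direction. The brightest went from 6602 and 8773 to 5311, 5308 and 5276 (-0.52 ± 0.13, adjusted p = 0.00597), and a second went from a mean of 1196 to 1944, a log2 difference of 0.68. The remaining, dim one went from a mean of 47.1 to 159.9, a difference of 1.24. Averaged over its probe sets Tpm1 was higher, by 0.47. Tpm1 makes different transcripts in muscle and other cells. Without transgenic day 0 replicate 2 the call on its brightest probe set was lost, at -0.32 (adjusted p = 0.138). Of 15 further probe sets of the 36 genes that passed the filter, 12 were lower and 3 higher at day 7 than at day 0, the 3 being 2 of Tpm1 and 1 of Myh1.

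All 5 energy genes were lower at transgenic day 7 than at day 0 (20.1% of all genes), with a class median of -1.40. Carns1, which makes the muscle dipeptide carnosine, read 716 and 839.8 at transgenic day 0, 393, 611 and 390.4 at day 1 and 118, 81.3 and 63.8 at day 7. In wild-type skin it read 859.6, 501 and 715 at day 0, 542, 507 and 348 at day 1 and 297 and 400.2 at day 7. Its day 7 change was -2.78 ± 0.25 in transgenic (adjusted p = 5.15e-07) and -0.91 ± 0.25 in wild-type skin (adjusted p = 0.0279), a difference of -1.87 ± 0.35 (adjusted p = 0.00152). Pygm, the muscle glycogen phosphorylase, went from 3425 and 4769 to 972, 689 and 1124 (-2.11 ± 0.17, adjusted p = 1.35e-07) and read 3062 and 2908 at wild-type day 7.

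The glycolytic enzymes Pgam2 and Eno3 fell by 1.40 and 1.08 (adjusted p = 1.32e-06 and 2.58e-06), and Ckm fell by 0.94 (adjusted p = 4.43e-05), from 10248 and 11632 to 5211, 5448 and 6429. In all 5 energy genes the day 7 arrays of the transgenic mice lay below those of wild-type mice at day 7. Of all genes 63% had no overlap between these groups. The median difference of the energy genes there was -1.58. The 4 classes with genes tested all moved in one direction, and whether their medians differ was not tested.

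Of the 3 slow-fibre genes with a probe set, Tnni1 and Tnnt1 rose at transgenic day 7 and Tnnc1 did not pass the test, all on dim signals. Tnni1, slow troponin I, read 4.7 and 5.88 at transgenic day 0, 12.8, 11.9 and 4.95 at day 1 and 97.5, 79.3 and 25.4 at day 7. In wild-type skin it lay between 6.87 and 18.4 on all 8 arrays. So the 3 transgenic day 7 arrays were the highest of the 16, replicate 3 nearest to the rest. In a fit of all 12393 genes without the filter Tnni1 rose by 1.33 ± 0.25 (adjusted p = 0.000845) from day 0, where 14.4% of all genes were called higher, and by 1.17 ± 0.22 (adjusted p = 0.000899) from day 1, where 18.1% were. It was above wild-type skin at day 7 by 1.17 ± 0.25 (adjusted p = 0.00232), where 14.8% were. The genotypes differed in the day 7 change by 1.33 ± 0.35 (adjusted p = 0.0176), with 8.78% of all genes called higher.

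Tnnt1, slow troponin T, read 7.01 and 5.98 at transgenic day 0, 21.4, 63.1 and 9.47 at day 1 and 105, 123 and 123 at day 7. Wild-type skin read 56.8, 18.8 and 25.9 at day 0, 84.0, 61.6 and 59.8 at day 1 and 78.0 and 115 at day 7, overlapping the transgenic arrays. Tnnt1 rose in transgenic skin by 1.95 ± 0.29 (adjusted p = 0.000145) and stood 0.23 ± 0.29 (adjusted p = 0.611) from wild-type skin at day 7, which was not called. In wild-type skin its change from day 0 to day 7 was 0.99 ± 0.29 (adjusted p = 0.0529), and the genotypes differed in that change by 0.96 ± 0.41 (adjusted p = 0.133), neither of them called. At day 0 the transgenic arrays read below the wild-type ones, with a difference of -0.73 ± 0.29 (adjusted p = 0.998), which was not called either. Tnnc1, the troponin C of slow and heart muscle, lay between 26.6 and 63.0 over all arrays and changed by -0.06 ± 0.20 (adjusted p = 0.856). All 3 lie near the floor of the array, and the added 32 makes their changes smaller than the ratio of their intensities.

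Of the 7 slow-fibre genes outside the set, 4 passed the filter. In the fit without it, the other 3 were not called in transgenic skin between day 0 and day 7. Their changes were 0.07 ± 0.15 (adjusted p = 0.779) for Myh7, 0.04 ± 0.24 (adjusted p = 0.937) for Myl2 and 0.49 ± 0.27 (adjusted p = 0.21) for Myl3. From day 1 to day 7 in transgenic skin Myl3 rose by 0.70 ± 0.24 (adjusted p = 0.0372), where 18.1% of all genes were called higher. In wild-type skin from day 0 to day 1 Myl3 rose by 0.88 ± 0.24 (adjusted p = 0.0247) and Myh7 by 0.61 ± 0.13 (adjusted p = 0.00732). In transgenic skin Atp2a2, the calcium pump of slow fibres that other cells also use, rose by 0.29 ± 0.09 (adjusted p = 0.0219) and Casq2, the slow and cardiac calsequestrin, by 0.40 ± 0.14 (adjusted p = 0.0312). Casq2 read 117 and 131 at transgenic day 0 and 185, 188 and 149 at day 7. In wild-type skin at day 7 it was at 382 and 285, so that transgenic skin was lower there by 0.82 (adjusted p = 0.000222). Myoz2, the slow-fibre relative of Myoz1, changed by -0.70 ± 0.29 in transgenic skin (adjusted p = 0.07) and was lower than in wild-type skin at day 7 by 1.43 (adjusted p = 0.00118). Tpm3 changed by 0.12 ± 0.08 (adjusted p = 0.233).

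Before treatment, of the 36 genes, 0 were called between transgenic and wild-type skin at day 0 in limma (0.011% of all genes were called), 0 had an unadjusted p under 0.05, and the differences lay between -0.35 and 0.24 with a median of 0.00. Among the 2 transgenic day 0 arrays, replicate 2 was higher than replicate 1 for nearly all of the genes, with mean log2 values of 12.10 and 11.63. The 3 wild-type day 0 arrays lay at 11.77 to 11.96.

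After 1 day of 4OHT in wild-type skin, 14 of 36 genes were lower and 0 higher (12.3% of all genes were called lower), with a median of -0.40 against -0.03 over all genes. Lmod2 fell furthest, from 785, 929 and 948 at day 0 to 157, 438 and 186 at day 1 (-1.77 ± 0.28, adjusted p = 0.000668). Mylk2 followed, from 809, 815 and 564 to 263, 398 and 288 (-1.13 ± 0.21, adjusted p = 0.00184), then Myom1 (-0.89), Ryr1 (-0.80) and Myh2 (-0.73). Myh2 was at -0.58 (adjusted p = 0.0731) without wild-type day 0 replicate 1 and at -0.57 (adjusted p = 0.0897) without wild-type day 1 replicate 1. The other 9, from Tcap at -0.69 to Myoz1 at -0.38, were Pygm, Myot, Ldb3, Des, Smpx, Ttn and Pgam2 besides these. The count was 6 without wild-type day 1 replicate 1, 9 without wild-type day 0 replicate 2 and 4 without further scaling of the arrays. On wild-type day 1 arrays 11 of 12 macrophage markers were higher than at day 0, where 911 of all 9058 genes were called higher. Their sums were 39606 to 44261 against 20120 to 23798. Of the basal keratinocyte markers 6 of 8 were lower (median -0.37), with sums of 34675 to 40703 against 44839 to 48977. The part of either in the muscle values was not tested.

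In transgenic skin 4 of 36 genes were lower at day 1 than at day 0 and 0 were higher, where 4.14% of all genes were called lower. They were Mylk2 (-0.92 ± 0.23, adjusted p = 0.0207), Tcap (-0.70 ± 0.12, adjusted p = 0.0026), Smpx (-0.50 ± 0.13, adjusted p = 0.0206) and Myoz1 (-0.47 ± 0.13, adjusted p = 0.03), and the median of the 36 was -0.19. Of the macrophage markers 10 of 12 were higher there too (median 1.10), where 594 of all 9058 genes were called higher. Their sums were 29738 to 43485 against 18938 to 21804, and their part in the muscle values was not tested. The count of muscle genes called was 0 without transgenic day 0 replicate 2, 7 without replicate 1 and 1 without transgenic day 1 replicate 1. Mylk2 was at -0.53 (adjusted p = 0.309) without transgenic day 0 replicate 2. The genotypes differed in the day 1 change for 0 of 36 genes in limma (0.287% of all genes were called), with 4 at an unadjusted p under 0.05. The call count rose to 1 without wild-type day 1 replicate 2. Set side by side at day 1, Lmod2 alone was called between the skins, where 0.718% of all genes were called higher. It read 446, 819 and 702 in transgenic and 157, 438 and 186 in wild-type skin (1.32 ± 0.28, adjusted p = 0.0369). An unadjusted p under 0.05 was found in limma for 8 of the 36 genes, and for 1820 of all 9058. Lmod2 no longer passed when transgenic day 1 replicate 2 was left out, at 1.14 (adjusted p = 0.0717), or replicate 3, at 1.25 (adjusted p = 0.122). Nor did it pass when wild-type day 1 replicate 1 was left out, at 1.06 (adjusted p = 0.136), or replicate 3, at 1.17 (adjusted p = 0.0865). The same held for transgenic day 7 replicate 1, at 1.32 (adjusted p = 0.0501), and the count was 2 without either transgenic day 0 array.

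In wild-type skin at day 7, 6 of 36 genes were higher than at day 1 and 0 lower (1.63% of all genes were called higher), with a median of 0.29. They were Actn2 (1.33 ± 0.26, adjusted p = 0.0113), Ldb3 (0.67, adjusted p = 0.0134), Myh2 (1.06, adjusted p = 0.0189), Mylpf (0.49, adjusted p = 0.0349), Mylk2 (0.94, adjusted p = 0.0386) and Myh1 (0.64, adjusted p = 0.0469). Wild-type day 7 has 2 arrays, and the count was 0 without replicate 1 and 3 without replicate 2. It was 2 without wild-type day 1 replicate 1 and 12 without either transgenic day 0 array. Against day 0 the 3 genes called lower (5.96% of all genes were) were Carns1, Tcap (-0.83 ± 0.12, adjusted p = 0.000874) and Ryr1. Of these Tcap alone passed with replicate 1 of wild-type day 0 left out, or with either array of wild-type day 7 left out. For Carns1 the change was -0.74, -0.71 and -1.10 without each of these in turn (adjusted p = 0.0895, 0.251 and 0.0582), and for Ryr1 -0.66, -0.88 and -0.49 (adjusted p = 0.0687, 0.0527 and 0.245). Carns1 was also lost without wild-type day 0 replicate 3 (-0.87, adjusted p = 0.0672) and Ryr1 without replicate 2 (-0.63, adjusted p = 0.0924).

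Counts at transgenic day 7 moved by under 1.5 times when any single array was left out. Without transgenic day 0 replicate 2, the brighter of that pair, 26 of 36 genes were called against day 0, and the 8 lost were Actn2, Cacna1s, Xirp1, Myl1, Tnnc2, Tpm1, Tpm2 and Trdn. With any other array left out 32 to 34 were called. Against day 1 the counts were 32 to 34, and against wild-type day 7 they were 30 to 36, with 30 without wild-type day 7 replicate 1. The 6 lost then were Acta1 (-0.25, adjusted p = 0.238), Lmod2 (-0.99, adjusted p = 0.0775), Myh1, Myl1 (-0.29, adjusted p = 0.174), Tpm1 (-0.43, adjusted p = 0.0623) and Trdn (-1.27, adjusted p = 0.075).

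The 36 genes varied together over the 16 arrays. The correlation of each with the mean of the others was between 0.479 (Myh1) and 0.992 (Ttn), with a median of 0.926. Over the 13 arrays without transgenic day 7 the median was 0.778, from -0.324 (Myh4) to 0.967 (Myot), so Myh4 did not follow the rest there. Carns1 (0.206) and Myl1 (0.238) were also low without those arrays. These are descriptions over arrays that share groups and scaling. The 12 genes outside the set most like it by Pearson's r over 16 arrays were Fitm1 (0.976), Speg, Cmya5, Hhatl, Smarcd3, Sh3bgr, Apobec2, Pfkm, Eef1a2, Coq8a, Gltp and Cpeb3 (0.963). Their r over the 13 arrays was 0.803 to 0.913.

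Other muscle genes moved with the set at transgenic day 7. Of 7 genes of oxidative muscle metabolism, 6 were lower than at day 0 (20.1% of all genes), with a median of -1.51. Cox8b, a muscle subunit of cytochrome oxidase, went from 2748 and 3536 to 822, 665 and 743 (-2.03 ± 0.16, adjusted p = 1.48e-07). Cox6a2 and Cox7a1, further such subunits, changed by -1.51 and -1.78, and Ckmt2, the mitochondrial creatine kinase of muscle, by -1.53. Of 24 genes tested from another list of skeletal muscle genes, which also holds Cox6a2, 16 were lower (20.1% of all genes) and 0 higher. Their median was -0.93. The lower genes included Pfkm (-1.49), the muscle phosphofructokinase, Art3 (-1.60) and Art1 (-1.66).

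Of 6 myogenic factors and muscle stem cell genes tested, 5 were lower at transgenic day 7 than at day 0 (20.1% of all genes). These included the transcription factors Mef2c (-0.92), Mef2a (-0.85), Myf6 (-1.33) and Mef2d (-0.47). The sixth, the adhesion molecule Ncam1, which nerve and other cells also make, was higher. Its change was 1.46 ± 0.37 (adjusted p = 0.00537), where 18.6% of all genes were called higher. For the genotype difference in the day 7 change 3 of these 6 genes were called lower (11.7% of all genes) and 0 higher, so Ncam1 was not called higher there. Of 4 genes of developing muscle tested, 0 were called against day 0 in limma, with 1 at an unadjusted p under 0.05. Against wild-type skin at day 7, 2 of the 4 were lower, where 21% of all genes were. For the genotype difference in the day 7 change, 1 of the 4 was called lower, where 11.7% of all genes were. In the fit without the filter, Myh3 of the same list differed in that change by -0.96 ± 0.21 (adjusted p = 0.00565). From day 0 to day 7 Myh3 rose in wild-type skin, by 0.80 ± 0.15 (adjusted p = 0.00523). In transgenic skin it was not called, at -0.16 ± 0.15 (adjusted p = 0.464). Myh8 and Chrng, also below the filter, were not called for the genotype difference (adjusted p = 0.67 and 0.344). Of 6 genes of muscle wasting or denervation tested, Fbxo32, a ubiquitin ligase of atrophy, fell by 0.72, Foxo3 fell by 0.67, and Runx1, which hair follicle cells also make, rose by 1.51. The genotypes differed in the day 7 change for 0 of these 6 in limma, with 1 at an unadjusted p under 0.05. In wild-type skin 1 of the 6 was higher and 1 lower at day 7 than at day 0 (5.96% of all genes were called lower).

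Markers of other skin cells moved at the same time, and the part of any of them in the muscle values was not tested. At transgenic day 7 against day 0, 20.1% of all genes tested were called lower and 18.6% higher. Hair follicle markers rose for 8 of 8 genes in transgenic skin at day 7, with a median of 5.66 and sums of 29797 to 43120 on those arrays against 419 to 688 on the other 13. Adipocyte markers, from the fat layer that lies beside the skin muscle, were lower for 7 of 10 genes, with a median of -1.23 and sums of 14882 to 16405 against 23468 to 45194. Endothelial markers were lower for 7 of 8 genes (median -0.58), with sums of 1614 to 2115 against 2302 to 3092, and Schwann cell markers for 3 of 4 (median -0.98), with sums of 2895 to 4177 against 6186 to 8855. Basal keratinocyte markers were lower for 5 of 8, with a median of -0.55 and sums of 33223 to 34216 against 34675 to 48977.

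Smooth muscle markers were mixed, with 5 of 11 lower (20.1% of all genes) and 2 higher (18.6%) against day 0. Their median was -0.61. Lmod1 and Myh11, a leiomodin and the myosin heavy chain of smooth muscle, fell by 1.33 and 1.51, and sums were 6515 to 6840 against 6654 to 8133. Dermal fibroblast markers had 4 of 12 higher and 2 lower, beside the same shares of all genes. Their median was 0.10, with sums of 49411 to 64157 against 55744 to 72894. For macrophages 0 of 12 markers were called against day 0 in limma, with 0 at an unadjusted p under 0.05. Against wild-type skin at day 7, 11 of 12 macrophage markers were lower, where 21% of all genes were. Their sums were 18841 to 32009 at transgenic day 7 and 44574 to 45867 at wild-type day 7. On the transgenic day 7 arrays Gapdh signal at the 3' end over that at the 5' end was 0.911 to 0.932, inside the range of the others.

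**Figure D4:**
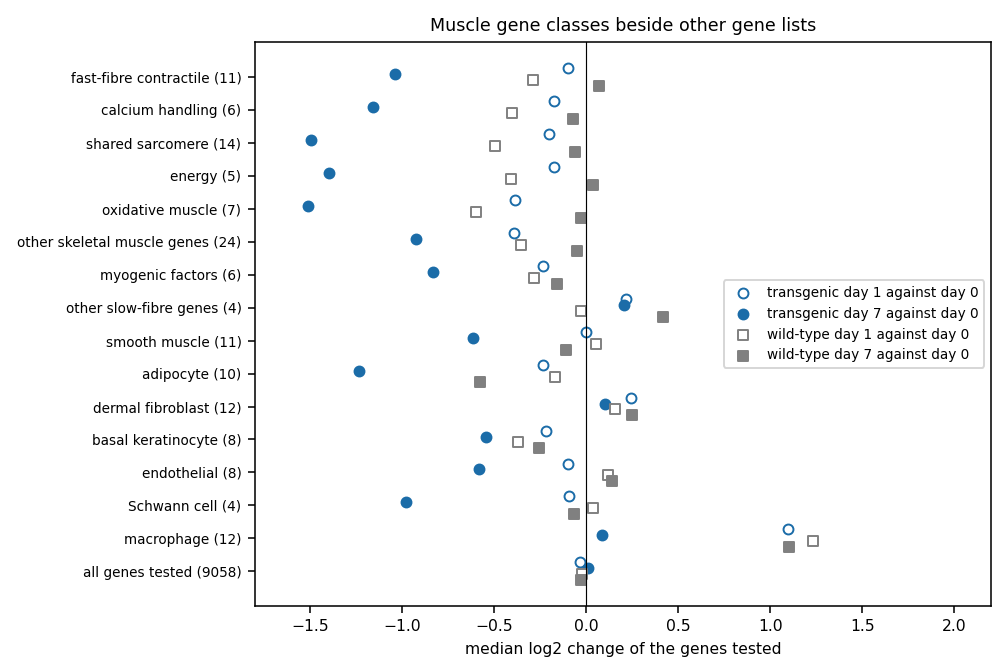
Median log2 change against day 0 for the 4 classes of muscle genes and for other gene lists, with the number of genes tested in brackets, in transgenic (circles) and wild-type skin (squares) at day 1 (open) and day 7 (filled); the hair follicle list, with a median of 5.66 at transgenic day 7, is left out of the plot. The muscle classes lie between -1.50 and -1.04 at transgenic day 7, and all genes tested near 0.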

How the data were processed

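Whole-skin RNA of 6 groups was hybridised to 16 Affymetrix 430 A arrays. The deposited values are probe set intensity on a linear scale, 22690 per array, 64 of them controls; the sources used here do not say how probes were summarised. Arrays were scaled here to 1 trimmed mean (2% off each end, factors 0.825 to 1.26) and taken as log2(intensity + 32). Kept were probe sets above their array's 40th percentile on at least 2 arrays, and the brightest of each gene (symbols from the platform annotation). Group means were fitted in limma 3.58.1 (R 4.3.3; trended empirical Bayes, 10 residual degrees of freedom) for 11 comparisons. Tests were two-sided, with Benjamini-Hochberg adjustment within a comparison. The fit was tested on simulated data. The number of arrays limits precision.

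The genes and lists were chosen with earlier results of these data known. Named were all members with a probe set, up to 4 genes of smallest p in muscle lists, up to 2 in other lists, and the 12 most alike by r. Myh7, Myl2, Myl3, Tpm3 and the heart genes are named as markers. Ncam1, the exception of its list, and Myh3, Myh8 and Chrng, below the filter, were chosen after their values were seen. Same-numbered samples did not deviate together, so numbers were not used as pairs. Figures used matplotlib 3.10.9 (Python 3.11.15).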

Additional observations from a re-analysis of the deposited data

Results flagged for a closer look

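The change from day 0 to day 7 differed between transgenic and wild-type skin, by the interaction term of the limma fit, for 29 of the 36 muscle genes tested. In each the log2 difference, transgenic minus wild-type, was below 0. Among fast-fibre genes these were Actn3 (-1.50), Myh2 (-1.39), Mylpf (-0.95), Mylk2 (-1.52), Myoz1 (-1.25), Tnnc2 (-0.50), Tnni2 (-0.94) and Tnnt3 (-1.17). Among calcium-handling genes they were Atp2a1 (-0.95), Casq1 (-1.35), Pvalb (-1.18), Ryr1 (-1.46) and Cacna1s (-1.20). Of the shared sarcomere genes they were Actn2 (-1.75), Des (-1.47), Myot (-1.41), Myom1 (-1.45), Myom2 (-1.78), Smpx (-1.44), Tcap (-1.04), Tpm1 (-0.61), Ttn (-1.31), Ldb3 (-1.24) and Xirp1 (-2.25), and of the energy genes Ckm (-1.05), Eno3 (-1.12), Pgam2 (-1.49), Pygm (-1.69) and Carns1 (-1.87). The genes tested, each on its brightest probe set, and not called were Lmod2, Myh4, Trdn, Myh1, Tpm2, Acta1 and Myl1. Of the 29, Tpm1 lost its call in 8 of 26 alternatives, Tnnc2 in 5, and Cacna1s and Xirp1 in 2 each. Without transgenic day 0 replicate 2 the differences were -0.40 (adjusted p = 0.167) for Tpm1, -0.36 (adjusted p = 0.128) for Tnnc2, -0.71 (adjusted p = 0.0735) for Cacna1s and -1.29 (adjusted p = 0.1) for Xirp1. Without wild-type day 7 replicate 1 they were, in the same order, -0.44 (adjusted p = 0.156), -0.42 (adjusted p = 0.108), -1.11 (adjusted p = 0.0568) and -1.97 (adjusted p = 0.078).

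Slow troponin genes below the filter gave a signal outside the genes tested. In a fit without the filter Tnni1 differed between genotypes in its day 7 change by 1.33 and stood 1.17 above wild-type skin at transgenic day 7, and Tnnt1 rose by 1.95 from day 0 to day 7 in transgenic skin. For Tnnt1 the difference between genotypes in that change was 0.96 ± 0.41 (adjusted p = 0.133) and the wild-type change 0.99 ± 0.29 (adjusted p = 0.0529), neither of them called, and Tnnc1 changed by -0.06 ± 0.20 (adjusted p = 0.856) in transgenic skin.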

How the results depend on the processing

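Each count of called muscle genes, taken in either direction, was recomputed under 26 alternatives, 16 of which leave out 1 array. Without the filter the counts also take in the slow troponin genes. There Tnni1 was called higher in each transgenic day 7 comparison, and Tnnt1 against day 0 and day 1. With probe sets averaged, Tpm1 was counted as a higher gene. The upper ends of the ranges are thus not counts of falls alone. Counts at transgenic day 7 stayed at 26 to 35 against day 0, 32 to 35 against day 1, 30 to 37 against wild-type skin and 25 to 31 for the genotype difference, and 25 of 34, 29 of 34, 28 of 36 and 25 of 29 genes were called in every alternative. The replicate block, fitted although the numbers do not pair the samples (r = -0.164 to 0.172 over 21 pairs, 5 above 0.1), gave 3, 33, 34, 14, 2, 4, 0, 1, 36, 0 and 29 calls, in the order transgenic day 1, day 7 and day 7 against day 1, the same for wild-type, the genotypes at days 0, 1 and 7, and the differences in the day 1 and day 7 change. It moved no count by over 1.5 times.

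Without further scaling the counts fell to 2 for transgenic day 1, 4 for wild-type day 1, 1 for wild-type day 7 against day 0 and 2 against day 1. Under that setting the median of all genes was -0.16 for transgenic day 1, -0.13 for transgenic day 7 -0.11 for wild-type day 7 against day 1, 0.14 between genotypes at day 0 and -0.18 for the difference in the day 1 change, and it moved the share of higher genes among all called to 29.35% from 48.09% at transgenic day 7 and to 81.88% from 44.94% at wild-type day 1. The share became 63.95% from 47.83% at wild-type day 7, 75% from 54.62% between genotypes at day 1, and 14.29% from 38.46% and 38.95% from 50.84% for the differences in the day 1 and day 7 change. With only the groups compared in the fit the counts were 1 for transgenic day 1, 6 for wild-type day 7 against day 0 and 0 for the genotypes at day 1. With no filter they were 3 for wild-type day 7 against day 1 and 0 for the genotypes at day 1; the cause was not tested. Leaving out 1 array gave 0 to 7 for transgenic day 1, 6 to 20 for wild-type day 1, 1 to 4 for wild-type day 7, 0 to 12 for it against day 1, 0 to 2 for the genotypes at day 1 and 0 to 1 for the difference in the day 1 change. Tpm1 reversed when all its kept probe sets were averaged, to 0.47 against day 0, 0.54 against day 1, 0.38 against wild-type skin and 0.42 for the genotype difference. Groups of 2 or 3 arrays limit all of these.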
